A study of Mus musculus with 24 samples.

Results

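The PGC-1 coactivators, the nuclear receptors they work through and the 2 factors NRF1 and GABPA were followed in mouse *M. gastrocnemius* after 6 h of hypoxia. The 10 genes were *Ppargc1a*, *Ppargc1b*, *Esrra*, *Esrrg*, *Nrf1*, *Gabpa*, *Ppara*, *Ppard*, *Pparg* and *Rxra*. Their probes were found by the gene name in the scanner output, which gave 18 of the 55681 non-control probes. Of these, 12 passed the filter on signal (mean Cy5 signal over 2 times the local background), so that 9 of the 10 genes were among the 9139 genes tested. *Rxra* was too dim for the test.

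Male C57BL/6JOlaHsd mice, 10 weeks old on arrival and housed alone, received a low-fat diet (10% of energy from fat) for 3 weeks and a high-fat diet (40%) for 6 weeks. They were then fasted and kept for 6 h in 20.9% oxygen (Norm, n = 12) or 12% oxygen (Hypox, n = 12), and the muscle was taken directly afterwards. All mice thus shared the diet and the fast, and no group without them was part of the comparison. On each of the 24 arrays, RNA of 1 mouse was labelled with Cy5 and hybridised against a Cy3-labelled pool of all samples. Values are log2 ratios of mouse over pool.

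PGC-1α (*Ppargc1a*) and PGC-1β (*Ppargc1b*) bind no DNA themselves. They dock on nuclear receptors and other factors at promoters and recruit the enzymes that open chromatin and start transcription. In skeletal muscle they are known for raising the genes of mitochondrial respiration, fatty acid oxidation and capillary growth, and *Ppargc1a* is known to be induced by exercise and fasting.

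The arrays lay on 6 slides of 4 arrays, each with 2 Norm and 2 Hypox arrays. Slide and scan could not be told apart. The mean Cy5 signal lay between 58.3 and 933 in Norm and between 63.5 and 1014 in Hypox, and slide 1 was the dimmest (58.3 to 102). Each array was also scored by the share of all genes for which it gave the highest or the lowest ratio of its group. This share was 46.7% for Hypox mouse 2 and 32.4% for Norm mouse 9, against 6.87% to 29.1% for the other arrays. Results that rest on these arrays are given with and without them. All 12 of the 12 skeletal muscle markers passed the filter.

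None of the 9 members passed P below 0.05 (limma's moderated test, before adjustment), against 12.2% of all genes tested. After Benjamini-Hochberg adjustment over all genes, 0.339% of the genes and again 0 members passed, the lowest adjusted P-value among the members being 0.409. Of the members, 5 had the lower and 4 the higher mean in Hypox, while 58.8% of all genes tested had the higher mean. The members' log2 fold changes had a median of -0.022, beside 0.029 over all genes. *Ppara* and *Ppargc1a* came closest to the threshold, both on the lower side, and *Gabpa* had the largest difference on the higher side. In whole muscle RNA, fewer cells of a type and less RNA per cell cannot be told apart.

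**Figure D1:**
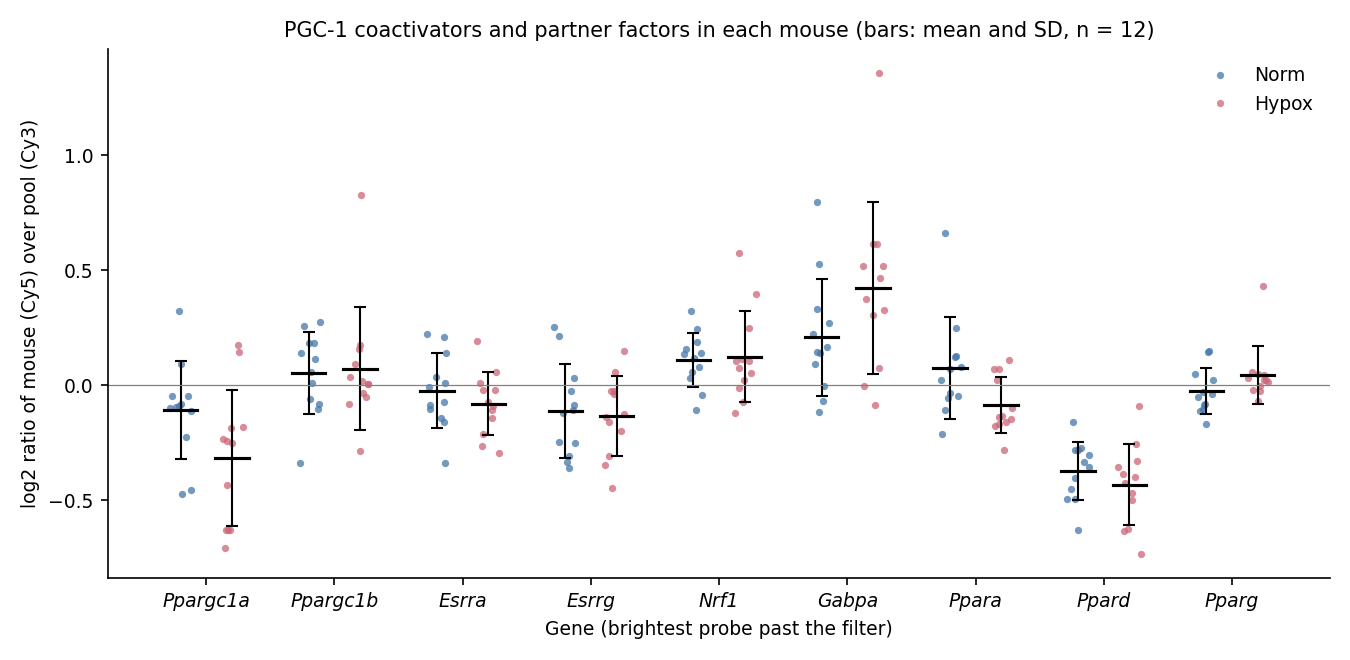
Log2 ratio of each mouse over the reference pool (y axis) for the brightest probe of the 9 members that passed the filter (x axis), with 12 Norm mice in blue and 12 Hypox mice in red, and the mean and SD as bars. The 2 groups overlap for every gene. Single Hypox values stand high for *Gabpa* (1.36), *Ppargc1b* (0.83) and *Pparg* (0.43), all of mouse 2.

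*Ppargc1a* had 2 probes on chromosome 5 (mm9, minus strand), at chr5:51848928-51848987, from base 2964 of the transcript NM_008904, and at chr5:51846926-51846985, from base 4966. The last 30 bases of both probes are shown, since their levels differed in how well they could be measured.
Ppargc1a, from base 2964: cacacttaaaacctacaacttcaaaatgtt
Ppargc1a, from base 4966: ttcatttatcaccagcatattgtgttctga

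The first of these probes had a mean signal of 6.63 times the background and exceeded background clearly (the scanner software's call "well above background") on 21 of 24 arrays. Its log2 ratio lay between -0.47 and 0.32 in Norm (median -0.092) and between -0.71 and 0.18 in Hypox (median -0.25). The groups overlapped, but 10 of 12 Hypox mice lay under the Norm median and 4 lay outside the Norm range. Norm averaged -0.11 ± 0.21 (SD, n = 12) and Hypox -0.32 ± 0.30 (SD, n = 12). The log2 fold change was -0.21 (SE 0.10, 95% interval -0.42 to 0.0039), which corresponds to 13.4% less, with P = 0.0541 and an adjusted P of 0.419 (limma).

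The sign of the *Ppargc1a* difference was shared by the slides. The 2 Hypox arrays had the lower mean on 6 of 6 slides, by between -0.015 on slide 1 and -0.39 on slide 6. With the slide as a block, P was 0.0444 (adjusted P = 0.331, limma). Without the 4 dim arrays of slide 1 the log2 fold change was -0.25 (P = 0.0491), and without Norm mouse 9 and Hypox mouse 2 it was -0.28 (P = 0.00743, adjusted P = 0.181). P also passed 0.05 when any 1 of Norm mice 2 and 9 and Hypox mice 2, 4, 9 and 12 was left out, and ranged from 0.0168 to 0.108 over the 24 such fits. The lowest adjusted P-value of *Ppargc1a* over the processing alternatives was 0.0754 (limma), with array weights. In the authors' deposited normalized values the log2 fold change of the same probe was -0.086 (SE 0.175, P = 0.630, the methods' t-test). With median centring it was 0.061, where the median of all genes was 0.25.

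The second *Ppargc1a* probe was dim, with a mean signal of 1.62 times the background, with 6 of 24 arrays well above it. Its log2 ratio lay between -0.32 and 0.42 in Norm and between -0.38 and 0.17 in Hypox, and the log2 fold change was -0.094 (SE 0.069, P = 0.186, limma over all probes). It was lower in Hypox on all but 2 of the 6 slides. No difference between the changes of the 2 probes was detected (-0.11, 2-sided permutation of the group labels, P = 0.334).

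**Figure D2:**
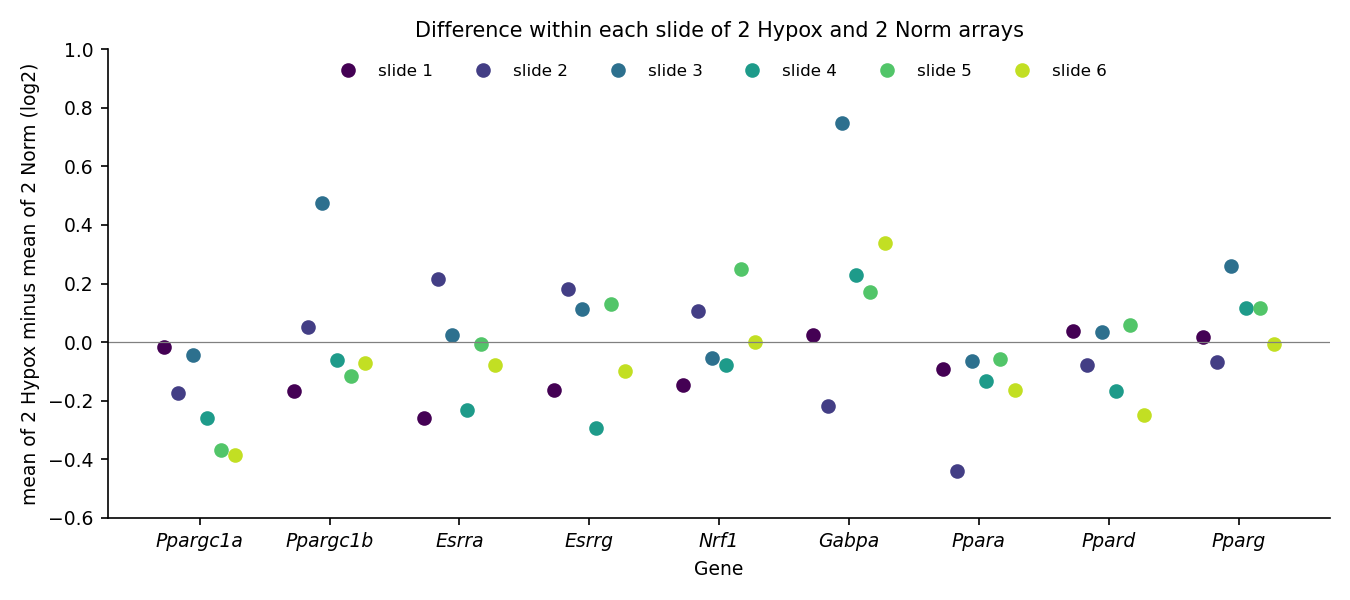
Mean of the 2 Hypox arrays minus mean of the 2 Norm arrays on the log2 scale (y axis) for each member (x axis), with 1 point per slide coloured by slide. *Ppargc1a* and *Ppara* lie under 0 on 6 of 6 slides, *Gabpa* over 0 on 5 of 6, and the other members on both sides.

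*Ppargc1b*, the second coactivator of the family, was measured by 1 probe from base 3164 of its transcript, with 2.42 times the background and a level well above background on 15 of 24 arrays. The log2 ratio lay between -0.34 and 0.27 in Norm (median 0.087) and between -0.29 and 0.83 in Hypox (median 0.013). A single Hypox mouse, mouse 2, lay above the Norm range. The log2 fold change was 0.019 (SE 0.093, 95% interval -0.17 to 0.21, P = 0.840, limma), and -0.050 (P = 0.486) without this mouse. On slide 3, which held it, the difference was 0.48, against -0.17 to 0.052 on the other slides. The sign also turned without Norm mouse 8, the lowest of its group (-0.017, P = 0.856), and, with all arrays kept, with the processed signals, Cy5 alone, the deposited values and array weights. No difference of *Ppargc1b* was detected, and its sign was not settled.

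*Esrra* encodes ERRα, the orphan receptor through which PGC-1 acts on most genes of the respiratory chain. Its probe (chr19:6985503-6985562, minus strand, from base 2146 of NM_007953) had 79.5 times the background and cleared it well on 24 of 24 arrays, so that dimness did not limit it. The log2 ratio lay between -0.34 and 0.22 in Norm (median -0.040) and between -0.29 and 0.19 in Hypox (median -0.082). All Hypox mice lay within the Norm range. Hypox minus Norm gave a log2 fold change of -0.056 (SE 0.069, 95% interval -0.20 to 0.086, P = 0.423, limma). For these ratios the interval ran from 12.8% less to 6.11% more. The sign depended on the processing: the deposited values gave 0.23 (SE 0.31, P = 0.470, the methods' t-test). Median centring gave 0.42, where the median of all genes was 0.25. Both values lay above this interval.

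*Esrrg* encodes ERRγ, the family member known from oxidative fibres and heart. Both probes passed the filter. The first, at chr1:190038192-190038251 (plus strand, base 4782 of NM_001243792), lay between -0.36 and 0.25 in Norm and between -0.45 and 0.15 in Hypox, with a log2 fold change of -0.022 (SE 0.081, 95% interval -0.19 to 0.14, P = 0.786, limma). The second, from base 4974, gave -0.046 (P = 0.554, limma over all probes). The probes differed in their change by 0.024 (permutation test, P = 0.800). Both *Esrrg* probes gave a lower mean in Hypox on 3 of 6 slides.

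*Nrf1* encodes nuclear respiratory factor 1, a DNA-binding activator of respiratory chain and *Tfam* genes. Its measurable probe (chr6:30103035-30103094, plus strand, base 3163 of NM_001164226) had 3.29 times the background. The log2 ratio lay between -0.11 and 0.32 in Norm (median 0.13) and between -0.12 and 0.57 in Hypox (median 0.088). No Norm mouse and 3 Hypox mice lay outside the range of the other group. Hypox minus Norm gave a log2 fold change of 0.013 (SE 0.073, 95% interval -0.14 to 0.16, P = 0.857, limma). The other 2 *Nrf1* probes, from bases 1101 and 1818 of NM_010938, were not well above background on any of the 24 arrays (1.29 and 1.21 times the background on average), and no fold is given for them.

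*Gabpa* encodes the DNA-binding subunit of GABP, also called NRF2, the second nuclear respiratory factor. Its 2 probes lie at chr16:84863822-84863881 and chr16:84860691-84860750 (plus strand), from bases 4784 and 1653 of NM_008065. Their last 30 bases are shown because the probe at the later base carried the larger difference. Capitals mark AATAAA, the poly(A) signal, searched as written on the transcript strand, which 8.16% of all 55681 probes hold in their last 30 bases.
Gabpa, from base 4784: ctctttaAATAAAgacacttatactatcat
Gabpa, from base 1653: aactgaaccgtctggtcatagagtgtgaac

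At base 4784, with 3.54 times the background, the log2 ratio of *Gabpa* lay between -0.12 and 0.80 in Norm (median 0.15) and between -0.088 and 1.36 in Hypox (median 0.42). The groups overlapped, with 9 of 12 Hypox mice over the Norm median. Norm averaged 0.21 ± 0.26 (SD, n = 12) and Hypox 0.42 ± 0.38 (SD, n = 12). The log2 fold change was 0.22 (SE 0.12, 95% interval -0.040 to 0.47, P = 0.0951, adjusted P = 0.493, limma), which corresponds to 16.1% more.

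The highest *Gabpa* value of each group came from the 2 arrays that stood apart, Hypox mouse 2 and Norm mouse 9. Without both, the log2 fold change was 0.18 (P = 0.0557). Without Hypox mouse 2 alone it was 0.13 (P = 0.210), without Norm mouse 9 alone 0.27 (P = 0.0332), and without Hypox mouse 5, the lowest of its group, 0.26 (P = 0.0417). Of the 6 slides, 5 had the higher mean in Hypox, with differences from -0.22 on slide 2 to 0.75 on slide 3. The processed signals that the scanner software wrote gave -0.068 (P = 0.763).

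The *Gabpa* probe at base 1653 was dim (1.58 times the background, well above background on 8 of 24 arrays) and gave a log2 fold change of 0.070 (SE 0.064, P = 0.288, limma over all probes). The changes of the 2 probes differed by 0.15, which was not called (permutation of the group labels, P = 0.408). With group means removed, the ratios of the 2 probes ran against each other across the 24 arrays (r = -0.46, permutation P = 0.0217, rho = -0.56, P = 0.00553). After adjustment over the 10 probe pairs compared, P for r was 0.109. Norm mouse 9 gave both the highest Norm ratio at base 4784 (0.80) and the lowest at base 1653 (-0.44). The correlation was not computed without this mouse.

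The PPARs are fatty acid-activated receptors that bind DNA together with RXR. PPARα (*Ppara*) is known for switching on fatty acid oxidation during fasting. *Ppara* had 3 probes that passed the filter, at chr15:85632534-85632593, chr15:85632110-85632169 and chr15:85637193-85637252 (plus strand), from bases 2697, 2273 and 7356 of NM_011144. Their last 30 bases are shown because the closely spaced first and second probes gave different signs.
Ppara, from base 2697: ctcctttgatatgatactttactgctttgt
Ppara, from base 2273: caaggttagccatttaaatgtggcaaaaaa
Ppara, from base 7356: ttcagggtacagttttgccttaatggtttt

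The probe at base 2697, which stood for *Ppara* as the brightest by mean log intensity over both channels, lay between -0.21 and 0.66 in Norm (median 0.047) and between -0.28 and 0.11 in Hypox (median -0.14). The groups overlapped, with 9 of 12 Hypox mice under the Norm median and 4 Norm mice outside the Hypox range. Norm averaged 0.073 ± 0.22 (SD, n = 12) and Hypox -0.086 ± 0.12 (SD, n = 12). The log2 fold change was -0.16 (SE 0.078, 95% interval -0.32 to 0.00050), which corresponds to 10.4% less, with P = 0.0507 and an adjusted P of 0.409 (limma).

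The Hypox mean of this *Ppara* probe was the lower one on 6 of 6 slides, by -0.058 to -0.44, and P with the slide as a block was 0.0636. By the methods' t-test P was 0.0412 for these ratios, and the deposited values gave -0.14 with P = 0.174. Norm mouse 9 held the highest value (0.66). Without it and Hypox mouse 2 the log2 fold change was -0.12 (P = 0.0663). P passed 0.05 when any 1 of Norm mice 3, 5, 6, 8 and 10 and Hypox mice 1, 2, 4 and 10 was left out, with a range of 0.0244 to 0.106 over the 24 such fits.

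For the other 2 *Ppara* probes no difference was detected. At base 2273 the ratio lay between -0.81 and 0.56 in Norm and between -0.34 and 1.14 in Hypox, with a log2 fold change of 0.064 (SE 0.16, P = 0.691, limma over all probes). At base 7356 it lay between -0.57 and 0.71 in Norm and between -0.30 and 0.46 in Hypox, with -0.049 (SE 0.11, P = 0.664). For none of the 3 pairs of *Ppara* probes was a difference in change detected (permutation of the group labels, P = 0.227, 0.345 and 0.505). With the mean of the 3 probes in place of the brightest, the *Ppara* log2 fold change was -0.048 (P = 0.615). The probes at 2273 and 7356 varied together between mice (r = 0.50, permutation P = 0.0136, adjusted P = 0.109 over the 10 pairs). Norm mouse 9 was the highest Norm mouse on all 3 probes, and r was not computed without it.

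*Ppard* encodes PPARδ, the family member known for fatty acid use in muscle. Its probe (chr17:28438298-28438357, plus strand, base 3101 of NM_011145) had 6.17 times the background and lay between -0.63 and -0.16 in Norm (median -0.35) and between -0.73 and -0.092 in Hypox (median -0.41). All 24 ratios were negative. Since the pool was made of all samples, this offset is not read as a lower level of the mice. Hypox minus Norm gave a log2 fold change of -0.061 (SE 0.070, 95% interval -0.20 to 0.082, P = 0.391, limma). Its sign turned with the scanner software's processed signals (0.14, P = 0.352).

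*Pparg* encodes PPARγ, the receptor that drives adipocyte differentiation. It had 10 spots of 1 probe (chr6:115440213-115440272, plus strand, base 1562 of NM_011146), averaged per array, with 3.47 times the background. The log2 ratio lay between -0.17 and 0.15 in Norm (median -0.046) and between -0.068 and 0.43 in Hypox (median 0.023). In Hypox, 11 of 12 mice lay over the Norm median, although a single mouse, mouse 2, lay above the Norm range. The log2 fold change was 0.072 (SE 0.059, 95% interval -0.049 to 0.19, P = 0.230, limma), and 0.053 (P = 0.287) without the 2 arrays that stood apart. The sign was positive under all processing alternatives and all fits without 1 array, although with median centring (0.21) it lay under the median of all genes (0.25).

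Markers of adipocytes, which *Pparg* also marks, were read beside it. Of all genes tested, 12.2% were called in either direction. Of the 7 adipocyte markers tested of 10 listed, *Cfd* (-0.56, P = 0.0177) and *Adipoq* (-0.33, P = 0.0309) were lower in Hypox and *Cidea* was higher (0.35, P = 0.00287), none after adjustment (limma). The mean ratio over the list lay between -0.81 and 0.75 in Norm and between -0.57 and 0.039 in Hypox, with Norm mouse 12 the highest. *Lep*, an adipocyte marker too, was not well above background on any array. The part of adipocyte RNA in the *Pparg* result was not tested.

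*Rxra*, the common partner of the PPARs, did not pass the filter with either probe. The probe at chr2:27615316-27615375 (base 1743 of NM_011305) had 1.70 times the background with 3 Norm and 5 Hypox arrays well above it. Its ratio lay between -0.37 and 0.19 in Norm and between -0.25 and 0.11 in Hypox, with a log2 fold change of 0.021 (SE 0.064, P = 0.753, limma over all probes). The probe at base 5208 (1.48 times the background) was not well above background on any Norm array and on 1 Hypox array, so that no fold is given.

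Over all 18 probes without the filter, 2 passed P below 0.05, the brighter *Ppargc1a* probe (P = 0.0463) and the *Ppara* probe at base 2697 (P = 0.0346), against 8.06% of all 55681 probes. Neither passed after adjustment (0.610 and 0.575, limma). In this fit the variance was moderated over all probes, and the P-values differ from those of the gene-wise fit. A level in both groups here means well above background on at least 1 Norm and 1 Hypox array. It was found for 15 of the probes, among them the dim ones of *Ppargc1a* (base 4966), *Gabpa* (base 1653) and *Rxra* (base 1743). Of the 10 pairs of probes of 1 gene, 6 had a level on both sides.

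**Figure D3:**
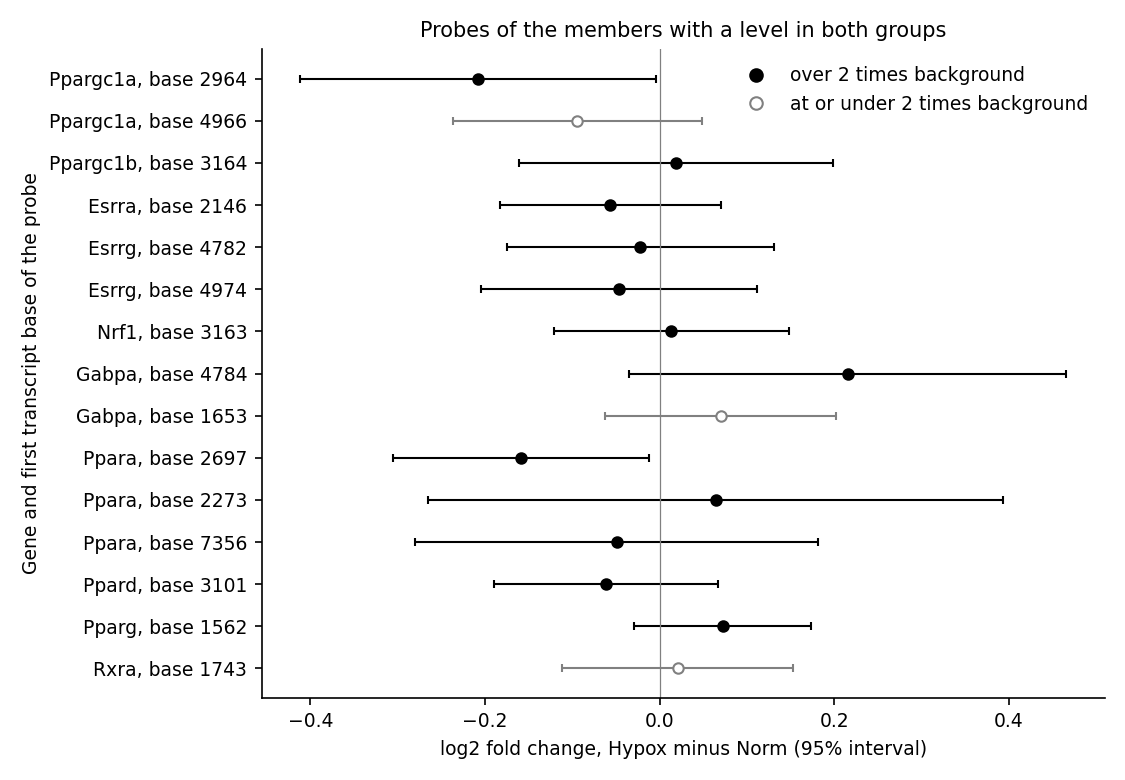
Log2 fold change, Hypox minus Norm, with its 95% interval (x axis) for the 15 probes of the members with a level in both groups (y axis, gene and first transcript base), filled where the mean signal was over 2 times the background. A level means well above background on at least 1 array of each group. The intervals of 2 probes, *Ppargc1a* at base 2964 and *Ppara* at base 2697, do not reach 0 in this fit over all probes.

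Of the 2 arrays that stood apart over all genes, Norm mouse 9 was at an end of its group for 5 of 9 members, being the highest for *Gabpa* and *Ppara* and the lowest for *Ppargc1a*, *Esrra* and *Esrrg*. Hypox mouse 2 was the highest of its group for *Ppargc1b*, *Esrra*, *Gabpa* and *Pparg*. Norm mouse 6, at an end for 15.7% of all genes, was at an end for 4 members too, being the highest for *Ppargc1a* and *Ppargc1b* and the lowest for *Ppara* and *Pparg*. Without it the log2 fold change of *Ppargc1a* was -0.17 (P = 0.108), the smallest over the fits without 1 array. Hypox mouse 7 was the lowest for *Ppargc1a*, *Ppara* and *Ppard*, although it was at an end for 7.27% of all genes only. With mice 9 and 2 left out, 1 of 9 members, *Ppargc1a*, passed P below 0.05, beside 1197 of all 9139 genes.

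Whether the partner genes varied with their coactivator between mice was asked within the groups, over 24 arrays with the group means removed. None of the 8 other members was correlated with *Ppargc1a* after adjustment over the 8 (permutation tests). The highest r was that of *Esrra* (0.40, P = 0.0506, adjusted P = 0.244, rho = 0.36, P = 0.0850). Without the 2 arrays farthest from the *Ppargc1a* median r was 0.47, and with slide means removed it was 0.42 (P = 0.0681). Without Norm mouse 9 and Hypox mouse 2, however, r for *Esrra* was 0.14 (P = 0.521). *Esrrg* had the highest rho (0.44, P = 0.0347, adjusted P = 0.277), with r = 0.32 (P = 0.122), while *Ppara* had r = -0.31 (P = 0.115) and *Gabpa* r = 0.038 (P = 0.874).

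These correlations changed with the processing. In the deposited values *Ppargc1a* was correlated with *Esrra* (r = 0.81, adjusted P = 8e-05) and *Ppard* (r = 0.76, adjusted P = 0.00016). The scanner software's processed signals gave a correlation with *Esrra* in the opposite direction (r = -0.54, adjusted P = 0.0433) and with *Pparg* (r = 0.57, adjusted P = 0.0433). With median centring, which leaves trends with brightness in the ratios, all 8 members had r between 0.84 and 0.96 (adjusted P = 1e-05, the smallest that 100000 permutations can give).

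The 5 genes whose ratios were most like those of *Ppargc1a* over the 24 arrays, group means removed, were *Hs3st5* (r = 0.77), *Fnip1* (r = 0.77), *Snupn* (r = 0.75), *Tmub1* (r = 0.73) and *Fbxo8* (r = 0.72). With slide means removed as well, r was 0.64 to 0.79. They were chosen by this measure, so that it carries no test. None passed P below 0.05 between Hypox and Norm (log2 fold changes from -0.12 to 0.14, lowest P = 0.128, limma).

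The genes around the members were read from 5 lists. Among 14 tested family members and DNA-binding partners, 1 was called, the lower *Rora*, an orphan receptor of the clock and of lipid metabolism (-0.41, SE 0.096, P = 0.000195, adjusted P = 0.0541, limma). *Rora* was lower on 6 of 6 slides and was called in 13 of 15 processings. The third coactivator of the family, *Pprc1*, had 0.18 (P = 0.150), and *Perm1*, the muscle regulator downstream of PGC-1 and ERR, had 0.18 (P = 0.201). The share called was 7.14%, against 12.2% of all genes, and the list's median was 0.0094.

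Among 18 tested coregulators, which help or oppose PGC-1 and nuclear receptors at chromatin, 2 were lower and 1 was higher (16.7% called, against 12.2% of all genes). *Crebbp*, an acetyltransferase that PGC-1 recruits, had -0.28 (P = 0.00418, lower on 6 of 6 slides), and the receptor coactivator *Ncoa3* had -0.26 (P = 0.00714). *Hdac3*, the deacetylase of the corepressor complex, had 0.29 (P = 0.0320). The list's median was -0.0049, with 10 genes lower and 8 higher, while 58.8% of all genes tested had the higher mean. None of the 18 passed after adjustment.

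Of the 16 tested regulators upstream of *Ppargc1a* (kinases, calcineurin subunits, CREB coactivators, class II deacetylases and others), 1 was called, *Akt2*, a kinase of insulin signaling (-0.18, SE 0.088, P = 0.0479, limma), which was called in 6 of 15 processings only. The share called was 6.25%, against 12.2% of all genes, and the list's median was -0.020.

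Among 23 tested targets of PGC-1 and ERR, 1 was called, the mitochondrial carrier *Ucp3* (0.31, SE 0.11, P = 0.00954), which the PPAR list holds too. *Tfam*, the mitochondrial DNA transcription factor downstream of NRF1 and GABP, had 0.16 (SE 0.10, P = 0.138), and *Pdk4*, the kinase that closes pyruvate dehydrogenase, had 0.081 (SE 0.15, P = 0.591). The share called was 4.35%, against 12.2% of all genes, and the median was 0.051. Over the processings this median lay between -0.0027 (array weights) and 0.45 (median centring, where the median of all genes was 0.25). In the deposited values it was 0.27, beside 0.026 over all genes. With the slide as a block 5 targets were called, 3 higher and 2 lower, beside 1297 of all 9139 genes.

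Of 22 tested PPAR targets, 7 (31.8%) were higher and 0 lower at P below 0.05 (limma), beside 7.17% higher and 5.07% lower of all genes. The list was chosen with earlier results of these data known, so that its share is a description and no test. *Angptl4*, the inhibitor of lipoprotein lipase, had the largest difference, from -0.17 ± 0.33 (SD, n = 12) in Norm to 0.49 ± 0.51 (SD, n = 12) in Hypox. Its log2 fold change was 0.66 (SE 0.16, P = 0.000321, adjusted P = 0.0620, limma). *Angptl4* was higher on 6 of 6 slides and was called in 15 of 15 processings.

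Of the other PPAR targets, *Slc25a20*, the carnitine-acylcarnitine carrier, had 0.26 (P = 0.0128) and the fatty acid transporter *Cd36* had 0.29 (P = 0.0207), both higher on 6 of 6 slides. *Cpt1a*, which forms acylcarnitines, had 0.14 (P = 0.0293), while *Cpt1b*, the form of muscle, had -0.020 (P = 0.851). The list's median was 0.14, beside 0.029 over all genes, with 16 genes higher and 6 lower. Over all genes tested, 58.8% had the higher mean in Hypox. None of the list passed after adjustment. The median was between 0.13 and 0.52 over the processings. The 0.52 came with median centring, where the median of all genes was 0.25 and 1 PPAR target was called.

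Markers of other cell types and fibres were read beside the PPAR targets. Of all genes tested, 7.17% were called higher and 5.07% lower (limma, P below 0.05 before adjustment), and 58.8% had the higher mean in Hypox. Of the endothelial markers, 3 of 7 tested were higher (*Esam*, *Cldn5* and *Cdh5*, 0.28 to 0.38), and 0 of the 10 listed were at background on all arrays. Of the slow fibre markers, 2 of 10 were higher (*Tnni1* and *Tnnc1*) with a median of 0.32. Of the fast fibre markers, 1 of 10, *Mylpf*, was higher and 0 lower, while the median was -0.25 and 7 of 10 had the lower mean in Hypox. With the slide as a block *Myh4* (-0.59, P = 0.00333), *Pfkm* (-0.40, P = 0.01001) and *Pvalb* (-0.48, P = 0.0159) were lower as well. The skeletal muscle list, which shares genes with it, had a median of -0.22, with 8 of 12 lower in mean and *Ryr1* called lower (-0.56, P = 0.0141). Of the other marker lists, 3 of 7 peripheral nerve genes were lower, 1 of 5 red blood cell and 1 of 2 lung epithelium genes were higher, and 0 of 4 macrophage genes passed in either direction. Norm mouse 5 had the lowest mean ratio both over the slow fibre markers (-1.91) and over the PPAR targets (-0.60), and without it 5 PPAR targets were called. The next lowest Norm mean over the slow fibre markers was -0.67 (mouse 3). The slow fibre markers were not read without mouse 5. The summed Cy5 signal above background of the endothelial markers lay between 182 and 8969 in Norm and between 326 and 10550 in Hypox, and that of the slow fibre markers from 3053 to 226400 and from 5166 to 190200. Their part in the result was not tested.

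**Figure D4:**
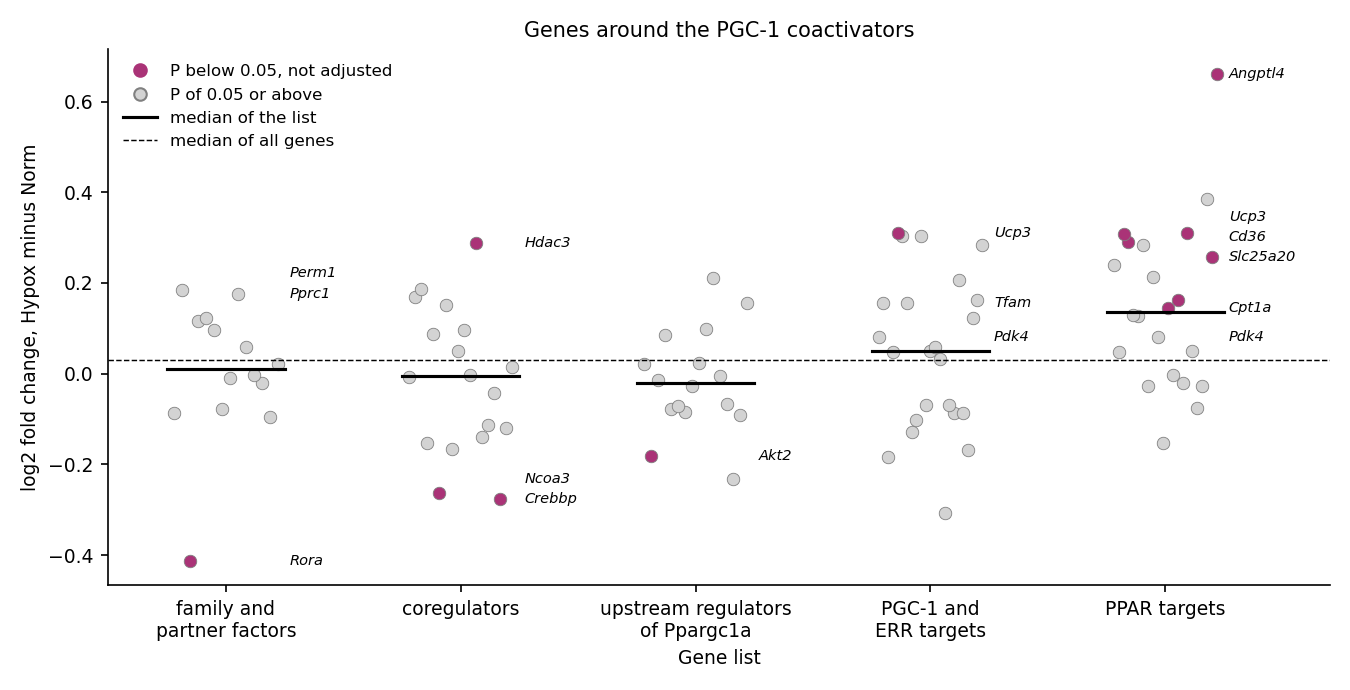
Log2 fold change, Hypox minus Norm (y axis), of each tested gene of the 5 lists (x axis), purple where P was below 0.05 before adjustment, with the median of each list as a line and the median of all genes (0.029) dashed. Only the PPAR target list has more than 1 gene called in the higher direction, with *Angptl4* at 0.66.

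How far the members' differences depend on the processing was followed for the 3 with the largest log2 fold change. *Ppargc1a* was negative under all processings but median centring (0.061, P = 0.852), under which the median of all genes was 0.25 and not 0.029. Relative to this shift *Ppargc1a* and *Ppara* (0.058) lay under the median of all genes there too. The number of members called ranged from 0 to 3, the 3 (*Ppargc1a*, *Ppara* and *Gabpa*) being reached with array weights, which raised the genes called over the whole array from 1118 to 1718.

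**Figure D5:**
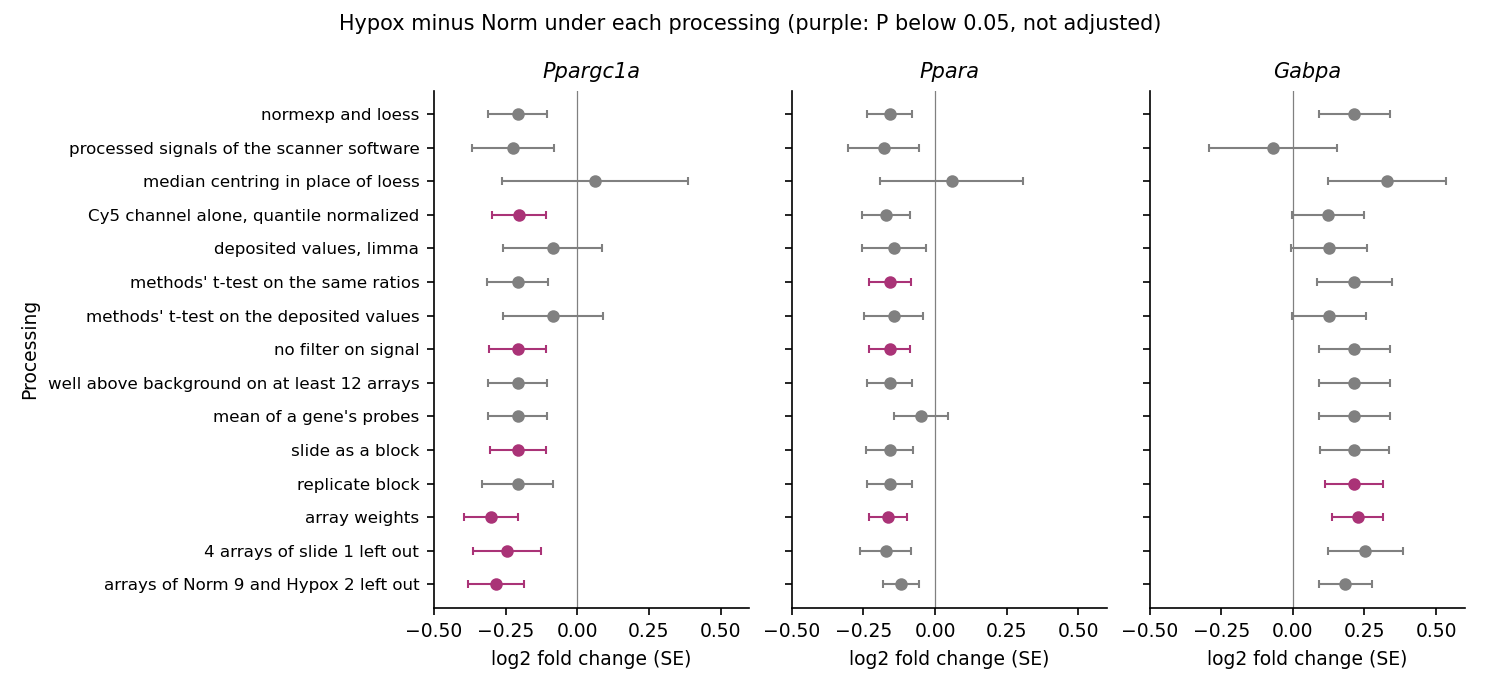
Log2 fold change, Hypox minus Norm, with its SE (x axis) of *Ppargc1a*, *Ppara* and *Gabpa* under each processing (y axis), purple where P was below 0.05 before adjustment. The largest difference of *Ppargc1a* is -0.30, with array weights.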

How the data were processed

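The 24 arrays carried total RNA of 12 Norm and 12 Hypox mice. Per spot and channel, the authors deposited a mean intensity and a local background from Agilent Feature Extraction 10.7.3.1 (submitters' processing notes), not normalized between arrays. For 21335 spots they also deposited normalized log2 values, with a median of 6.58 on every array. How these were scaled and how the Cy3 channel entered them are not given in the sources used here. On each array they followed the log2 Cy5 signal of that array (r between 0.967 and 0.999), so they are not read as ratios of mouse over pool. Dyes were taken from the sample descriptions (Cy5 mouse, Cy3 pool), since 5 Hypox samples carry labels with dyes that contradict them.

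Outlier flags removed 7260 spot readings, controls were dropped, and 0 spots were saturated. Intensities were corrected with normexp (offset 50), loess was run on the log2 ratios of each array, and spots of a probe were averaged. Probes with a mean Cy5 signal of more than 2 times the background around the spot, and no more than 4 arrays lacking a value, were kept (14312). Genes were named through RefSeq (GRCm38.p6) for 27235 probes by accession, 3581 by symbol and 565 by synonym, and probe positions are those of the array's annotation (mm9). The exon or UTR of a probe was not derived. Each gene was read from its probe of highest mean log intensity (Cy5 and Cy3). "Well above background" is the scanner software's call.

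The 12 Hypox arrays were compared with the 12 Norm arrays in limma (lmFit and eBayes), with no block and with Benjamini-Hochberg adjustment, and called at P below 0.05 without adjustment as in the study's methods. Correlations and differences between probes used 100000 permutations, 2-sided. The members and lists were chosen with earlier results of these data known. Every member was named, of each list at most 5 genes called, by smallest P, with *Tfam*, *Perm1*, *Pprc1* and *Pdk4*, and the 5 genes most like *Ppargc1a*. Marker genes and *Cpt1b* were named after their values were seen, as was *Lep*. The number of arrays and, for dim probes, the signal over background limit the precision. Alternatives tried were median centring, Agilent's processed signals, Cy5 alone (quantile normalized), the values the authors deposited, the t-test of the methods, other filters, the mean of a gene's probes, slide or replicate number as a block, array weights and leaving out arrays. Fits used R 4.3.3, limma 3.58.1 and version 1.17.8 of data.table, after a test on simulated data. Summaries and plots used pandas 2.3.3, numpy 2.4.6 and matplotlib 3.10.9 under Python 3.11.15.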

Additional observations from a re-analysis of the deposited data

How the results depend on the processing

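No processing gave a member an adjusted P-value below 0.05. The number of members called (0 of 9) was 1 with the Cy5 channel alone, with the t-test of the methods on these ratios, with the slide as a block, without slide 1 and without Norm mouse 9 and Hypox mouse 2, 2 without the filter and 3 with array weights. Over the fits without 1 array it ranged from 0 to 2. Of all 9139 genes, 1112 were called with the t-test on these ratios and 1297 with the slide as a block. Without slide 1, 1283 were called, and without mice 9 and 2, 1197. Of the 18 probes, 2 were called, but 0 with the processed signals, with median centring and with the deposited values by either test, 1 with the t-test on the same ratios, 4 with array weights, and 0 to 3 without 1 array. These counts include *Nrf1* probes that were not well above background on any array. They were the probe at base 1818 with array weights, and those at bases 1101 and 1818 in some fits without 1 array. Leaving out slide 1, or mice 9 and 2, was chosen after seeing the data.

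Signs turned as follows. With the processed signals *Ppargc1b* was at -0.17, *Gabpa* at -0.068 and *Ppard* at 0.14. With median centring, where the median of all genes was 0.25, *Ppargc1a* was at 0.061, *Esrra* at 0.42, *Esrrg* at 0.17, *Ppara* at 0.058 and *Ppard* at 0.18. With Cy5 alone *Ppargc1b* was at -0.092, *Nrf1* at -0.039 and *Ppard* at 0.00045. In the deposited values, by either test, *Ppargc1b* was at -0.098, *Esrra* at 0.23, *Nrf1* at -0.054 and *Ppard* at 0.029. *Ppargc1b* was at -0.010 with array weights and at -0.054 without mice 9 and 2, and *Esrrg* at 0.0066 without slide 1. Without 1 array *Ppargc1b* lay between -0.050 and 0.051, *Esrrg* between -0.048 and 0.011 and *Nrf1* between -0.028 and 0.035. The cause was not tested. *Pparg* kept its sign under all 38 settings.

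The genes called over the whole array (1118) were 32 with median centring, all of them higher, 732 with Cy5 alone, 506 (limma) or 555 (t-test) in the deposited values, 1939 without the filter, where more genes were tested, and 1718 with array weights, and ranged from 974 to 1289 without 1 array. Of the called genes, 58.6% were higher, but 100% with median centring, 50.3% with Cy5 alone, and 52.2% (limma) or 48.8% (t-test) in the deposited values, the last with a majority lower.

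For the lists, median centring called 0 family members, 0 coregulators, 0 upstream regulators, 0 PGC-1 and ERR targets and 1 PPAR target. The family count (1) was 0 with the t-test on the deposited values. The coregulators (3) were 1 with Cy5 alone, 0 (limma) or 1 (t-test) in the deposited values, 7 with array weights and 5 without slide 1. The upstream regulators (1) were 2 with the processed signals and without the filter, and 0 with Cy5 alone, the deposited values by either test, the mean of a gene's probes, array weights, without slide 1 and without mice 9 and 2. The PGC-1 and ERR targets (1) were 2 with the processed signals and with the mean of a gene's probes, 5 with the slide as a block, 4 with the replicate block, and 3 with array weights and without slide 1. Without 1 array, the counts were 1 to 1, 2 to 5, 0 to 2, 1 to 3 and, for the PPAR targets (7), 4 to 9, the 4 being without Hypox mouse 3 or 6. Correlations with *Ppargc1a* (0 of 8) were called for 2 members with the processed signals, 8 with median centring and 2 in the deposited values, and for 0 without any 1 array.

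The replicate numbers share only a number: mice of the same number in both groups deviated together with r between -0.20 and 0.52 over genes, in 3 of 12 pairs over 0.1, and 1 of 12 correlated best with its own number. With the replicate block 1194 genes and 1 member, *Gabpa* (P = 0.0477), were called. Slide 1, where between 9.42% and 16.2% of the spots were well above background, limits what can be read from dim probes. The *Rxra* probe at base 1743 was well above background on 8 of 24 arrays, and the other 2 *Nrf1* probes on 0.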
